A study of Arabidopsis thaliana with 30 samples.

Results

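GI, HYH and AT3G44450 are 3 genes at the junction of light signalling and the circadian clock. They were chosen by name, with earlier results of these data known, as the probe sets matched to exactly 1 of these genes. Each gene had 1 such probe set, so that 3 of the 22746 tested probe sets, and of the 13513 matched to a single gene, are described here. GI (GIGANTEA, AT1G22770) encodes a large clock protein that holds blue light receptors of the ZEITLUPE family and is needed for flowering in long days. HYH (AT3G17609) encodes a bZIP transcription factor, the closest homologue of HY5, which switches on light-regulated genes and is degraded in darkness through the COP1 ubiquitin ligase. AT3G44450 encodes an inhibitor of cryptochromes, the blue light receptors, and thereby acts as a brake on blue light signalling.

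Transcript levels were measured on 30 Affymetrix ATH1 arrays, with 3 biological replicates in each of 10 groups, in shoots of 12-day-old seedlings that had been adapted for 7 days to continuous light of 10 µE per square metre and second. All lines had the Col-0 background. They were wild type, the flu mutant, the mbs1-1 mutant, RNAi-MBS2/mbs1-1, in which RNA interference against MBS2 was added to the mbs1-1 mutation, and 35S:MBS1, in which MBS1 was driven by the constitutive 35S promoter. Groups at 0 h had no high light, and groups at 3 h had 3 h of high light at 1000 µE per square metre and second following 3 h of darkness. FLU represses chlorophyll synthesis in the dark, and flu plants release singlet oxygen when light returns, while MBS1 and MBS2 are small zinc-finger proteins of the singlet oxygen response. Whether each transgenic or mutant line was 1 clone or family is not given in the sources used here.

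In plants under continuous dim light, clock genes keep cycling, and a return from darkness to bright light both resets the clock and activates photoreceptors. GI transcript is known to peak late in the subjective day, and HYH and inhibitors of cryptochrome are known to be induced by light. Whether the 0 h plants had also been through the dark period is not given by the labels. In a comparison of 3 h with 0 h, high light, any difference in darkness and the time of day therefore cannot be told apart. The altered genes were not used to check the labels, since 0 single-gene probe sets carried the symbol MBS1, MBS2 or FLU. These genes were not looked up by locus, so whether the array holds probe sets for them was not settled.

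Within groups the correlation between arrays ran from 0.983 to 0.996, and 2 arrays were brighter than the rest, wild type 0 h replicate 1 and mbs1-1 3 h replicate 1. For actin, the excess of the signal at the 3' end over that at the 5' end, a measure of RNA integrity, lay on the log2 scale between 6.04 and 6.39 before high light and between 6.61 and 6.82 after it in wild type, and between 6.93 and 6.98 in flu at 3 h. In wild type and flu these ranges did not overlap between the times (flu at 0 h, 6.13 to 6.56), and in mbs1-1 they did (6.53 to 6.59 and 6.17 to 6.89). They also overlapped in RNAi-MBS2/mbs1-1 (6.26 to 6.78 and 6.73 to 6.83) and 35S:MBS1 (6.30 to 6.68 and 6.54 to 7.02). The same measure for GAPDH overlapped between the times in every line. It was 3.30 to 3.79 at 0 h and 3.42 to 3.62 at 3 h in wild type. In flu it was 3.78 to 3.92 at 0 h and 3.29 to 3.79 at 3 h. The part of the actin shift in the results was not tested. In every group the excess was large, at 6.04 or more for actin and 3.14 or more for GAPDH. Whether the RNA or the probe sets gave rise to this size was not tested. Of the shoot and root markers looked for by symbol, only the root and seedling glucosidase gene PYK10 was found. Its levels were 11.04 to 12.49 at 0 h and 11.18 to 11.85 at 3 h. The antenna genes LHCB4.1, LHCB4.2 and LHCB4.3, markers of green tissue added after the annotation was seen, each separated the 15 arrays at 0 h from the 15 at 3 h. LHCB4.1 lay between 13.58 and 14.01 at 0 h and between 12.95 and 13.45 at 3 h, and LHCB4.2 between 13.69 and 14.05 and between 10.43 and 11.89. LHCB4.3 lay the other way, between 6.92 and 7.66 at 0 h and between 8.68 and 10.71 at 3 h. The part of these shifts in the results was not tested. In whole shoots, fewer cells expressing a gene and less RNA per cell cannot be told apart.

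GI rose from a low to a high level in every line. All levels below are log2 values of signal, and a step of 1 is a doubling. In wild type the 3 arrays at 0 h read 5.94, 5.65 and 5.62, and those at 3 h read 9.89, 9.61 and 9.72. In flu they read 5.57, 5.40 and 5.74 at 0 h and 9.79, 9.74 and 9.66 at 3 h. The lowest level of the 30 arrays was thus found in flu before high light, and the 3 flu arrays at 3 h lay inside the range of wild type.

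In the lines with altered MBS1 GI also moved from a low to a high level. It read 6.22, 5.55 and 5.94 in mbs1-1 at 0 h and 9.67, 9.81 and 9.99 at 3 h. In RNAi-MBS2/mbs1-1 it read 6.35, 5.86 and 6.04 at 0 h and 9.97, 9.86 and 9.80 at 3 h. The 3 arrays of 35S:MBS1 at 0 h, at 6.30, 5.94 and 6.62, were all above those of wild type, but the lowest of them and the highest wild type array were equal to 2 decimals. At 3 h 35S:MBS1 read 9.86, 9.64 and 9.52, which overlapped all other lines.

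HYH was already high in dim light and rose further, by less than the other 2 genes. In wild type HYH read 11.12, 11.03 and 10.67 at 0 h and 12.30, 12.28 and 12.39 at 3 h. In flu it read 10.69, 10.85 and 10.72 at 0 h and 12.51, 12.51 and 12.57 at 3 h. The flu arrays at 3 h were tightly grouped and lay above all 3 arrays of wild type.

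The other lines followed the same course. HYH read 10.82, 10.87 and 11.01 in mbs1-1 at 0 h and 12.53, 12.46 and 12.31 at 3 h. In RNAi-MBS2/mbs1-1 it read 11.16, 11.18 and 10.49 at 0 h and 12.66, 12.47 and 12.66 at 3 h. Replicate 3 at 0 h of that line was the lowest HYH array of all 30, and the other 2 were the highest at 0 h. In 35S:MBS1 HYH read 10.57, 10.95 and 10.73 at 0 h and 12.43, 12.60 and 12.39 at 3 h, so that wild type had the lowest mean of the 5 lines after high light.

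AT3G44450, the cryptochrome inhibitor gene, moved over the widest range of the 3. In wild type it read 5.69, 6.07 and 6.22 at 0 h and 10.85, 10.79 and 11.29 at 3 h. In flu it read 6.31, 5.49 and 5.27 at 0 h, the widest spread of any group for this gene, and 10.72, 10.69 and 10.54 at 3 h. All 3 flu arrays at 3 h lay below every array of the other 4 lines at that time. Against wild type alone, flu at 3 h had no overlap for 36.1% of all probe sets. The share against all 4 lines was not computed.

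AT3G44450 read 6.41, 6.12 and 6.34 in mbs1-1 at 0 h and 11.44, 11.39 and 10.80 at 3 h. In RNAi-MBS2/mbs1-1 it read 6.35, 6.72 and 6.58 at 0 h and 11.10, 11.54 and 11.35 at 3 h, the highest group mean at both times. In 35S:MBS1 it read 5.93, 6.67 and 6.12 at 0 h and 11.19, 11.26 and 11.15 at 3 h. At 0 h the arrays of RNAi-MBS2/mbs1-1 did not overlap with those of wild type, and at 3 h they did.

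**Figure D1:**
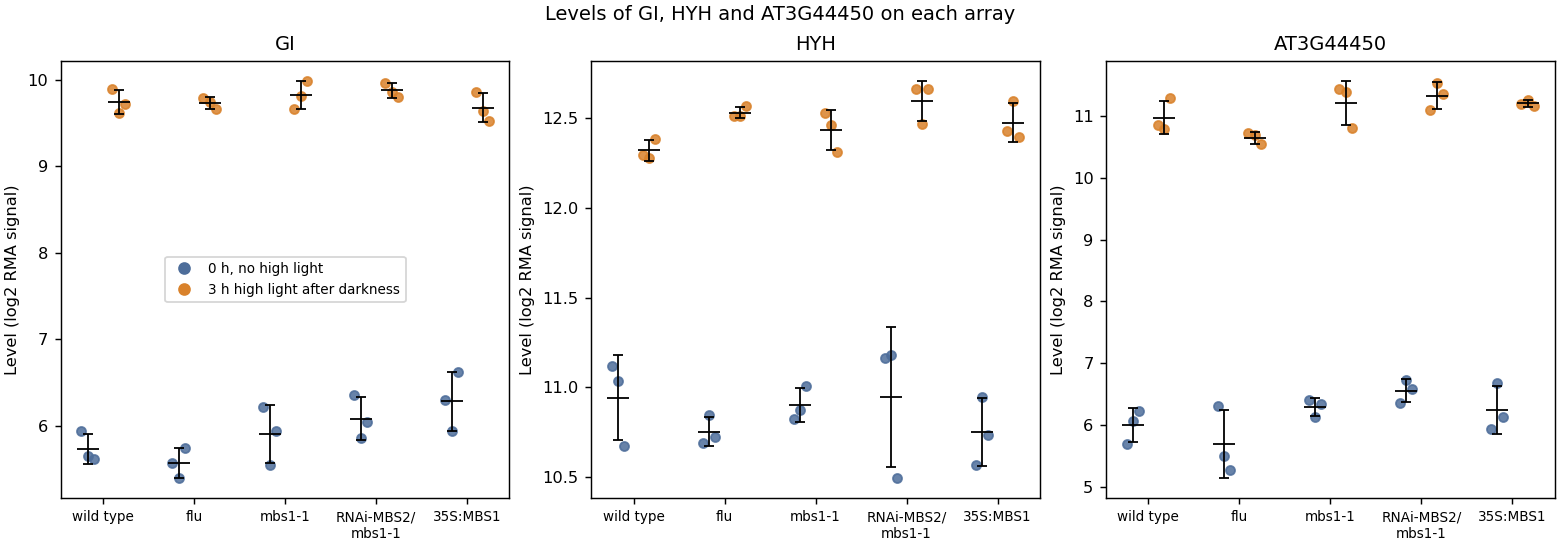
Levels of GI, HYH and AT3G44450 (log2 RMA signal) on each of the 30 arrays, by line, before (blue) and after (orange) high light. Points are arrays, and bars show the mean and SD of 3 arrays. For all 3 genes the 15 arrays at 3 h lie above the 15 at 0 h, with a gap of 2.91 for GI, 1.099 for HYH and 3.82 for AT3G44450. The axes differ between panels and do not start at 0.

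For each gene the lowest array at 3 h, whatever its line, exceeded the highest at 0 h. The gap was 2.91 on the log2 scale for GI, from 6.62 to 9.52. It was 1.099 for HYH, from 11.18 to 12.28, and 3.82 for AT3G44450, from 6.72 to 10.54. Such a full separation of the 15 arrays at 3 h above the 15 at 0 h was found for 10.8% of all tested probe sets, and the reverse for 10.8%.

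The first comparison asked how far each gene moved from 0 h to 3 h in each line. This change is called the response to high light throughout, although darkness and time of day were not separated from it. GI rose 16.1-fold in wild type, a log2 fold change of 4.01 ± 0.17 (SE, n = 3 arrays per group here and below, limma adjusted p = 5.3e-16). The rise was 4.16 ± 0.17 in flu and 3.92 ± 0.17 in mbs1-1, or 17.9-fold and 15.1-fold. For RNAi-MBS2/mbs1-1 it came to 3.79 ± 0.17, or 13.9-fold, and for 35S:MBS1 to 3.39 ± 0.17, or 10.5-fold. The fold was thus lowest in the overexpressor of MBS1, where GI started from the highest level. All adjusted p-values of GI in these lines were 1.06e-14 or lower.

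AT3G44450 rose 31.6-fold in wild type, by 4.98 ± 0.22 (limma adjusted p = 1.77e-15). In flu it rose by 4.96 ± 0.22 and in mbs1-1 by 4.92 ± 0.22. In 35S:MBS1 the rise was 4.96 ± 0.22, and in RNAi-MBS2/mbs1-1 it was 4.78 ± 0.22. These are folds of 31.2, 30.3, 31.2 and 27.5, and the response of this gene varied less between lines than its standard error. Whether the 0 h levels of GI and AT3G44450 lay above array background was not tested.

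HYH rose 2.60-fold in wild type, by 1.38 ± 0.14 (limma adjusted p = 1.25e-08). HYH rose by 1.78 ± 0.14 in flu and 1.53 ± 0.14 in mbs1-1, or 3.43-fold and 2.89-fold. For 35S:MBS1 the rise came to 1.72 ± 0.14, or 3.30-fold, and for RNAi-MBS2/mbs1-1 to 1.65 ± 0.14, or 3.14-fold. Each is a larger number than that of wild type.

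All 3 genes passed in all 5 lines. This count is read against a background in which 45.5% of tested probe sets passed in wild type, 21.1% as higher and 24.4% as lower. In flu 48.1% passed (23% higher, 25.1% lower), and for mbs1-1 the share was 44.6% (25.9% higher, 18.8% lower). For 35S:MBS1 it was 47% (22% higher, 25% lower), and for RNAi-MBS2/mbs1-1 45.6% (21.2% higher, 24.5% lower). A call as such is therefore common. By the size of the wild type change AT3G44450 ranked 29 among the 22746 probe sets, GI ranked 79 and HYH ranked 2149. In flu the ranks were 47, 134 and 1575. Because the genes were chosen with earlier results of these data known, the ranks only describe them. The median change of all probe sets was -0.07 in wild type, and over the 5 lines it ran from -0.10 to 0.10.

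**Figure D2:**
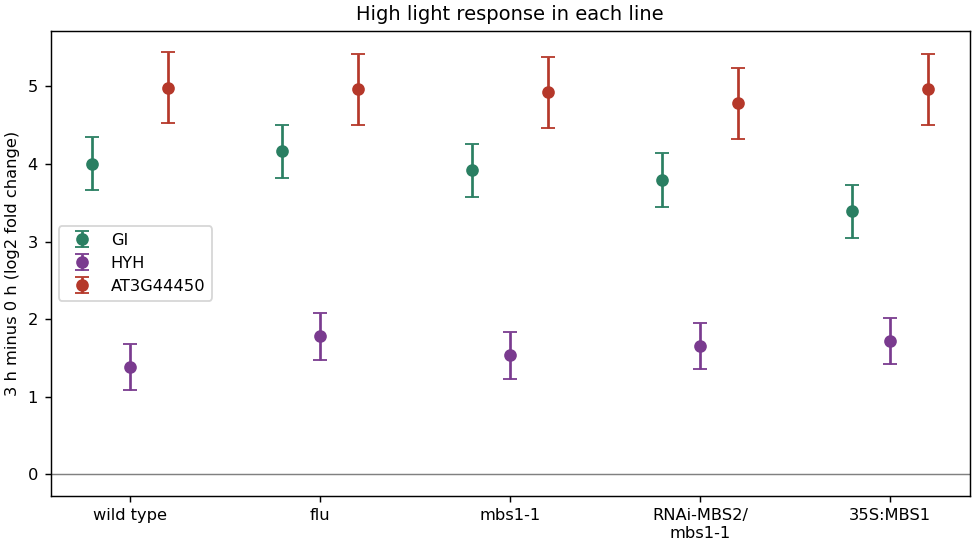
Response to high light (3 h minus 0 h, log2 fold change) of GI, HYH and AT3G44450 in each of 5 lines. Points are limma estimates from 3 arrays per group and bars are 95% intervals. AT3G44450 stands between 4.78 and 4.98 in all lines, GI between 3.39 and 4.16 and HYH between 1.38 and 1.78.

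The second comparison asked whether the lines differed from wild type before high light. None of the 3 genes passed in any of the 4 lines in limma. The background was low as well, at 0.506% of probe sets in flu, 0.0176% in 35S:MBS1 and 0.0308% in both mbs1-1 and the RNAi line built on it. In flu the 3 genes stood at -0.17 ± 0.17 for GI, -0.19 ± 0.14 for HYH and -0.31 ± 0.22 for AT3G44450 (adjusted p of 0.812, 0.729 and 0.71).

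The largest difference of GI was in 35S:MBS1, at 0.55 ± 0.17 above wild type, with a 95% interval of 0.21 to 0.89. It had an unadjusted p of 0.00301 and an adjusted p of 0.999 in limma, and so did not pass over all probe sets. GI stood at 0.35 ± 0.17 in RNAi-MBS2/mbs1-1 (unadjusted p = 0.0477, limma adjusted p = 0.669) and at 0.17 ± 0.17 in mbs1-1 (adjusted p = 0.791). Loss and overexpression of MBS1 thus both had values above 0 for this gene, and each shares the wild type arrays.

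AT3G44450 was 0.56 ± 0.22 above wild type in RNAi-MBS2/mbs1-1 at 0 h, with a 95% interval of 0.10 to 1.01 (unadjusted p = 0.019, limma adjusted p = 0.601). It stood at 0.30 ± 0.22 in mbs1-1 and 0.25 ± 0.22 in 35S:MBS1. HYH stood at -0.19 ± 0.14 in 35S:MBS1, -0.04 ± 0.14 in mbs1-1 and 0.0041 ± 0.14 in RNAi-MBS2/mbs1-1. Groups without overlap were those of GI in 35S:MBS1, as for 8.92% of all probe sets, and of AT3G44450 in RNAi-MBS2/mbs1-1, as for 10.5%. In flu and mbs1-1 at 0 h all 3 genes overlapped with wild type, where 11.4% and 16.7% of probe sets did not.

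After high light, the question was whether flu, with its singlet oxygen, or the MBS1 lines ended at another level. In flu 18.3% of all probe sets differed from wild type at 3 h, and none of the 3 genes was among them. GI stood at -0.01 ± 0.17, with a 95% interval of -0.35 to 0.34. HYH stood at 0.21 ± 0.14 (interval -0.09 to 0.51, limma adjusted p = 0.37) and AT3G44450 at -0.32 ± 0.22 (interval -0.78 to 0.13, limma adjusted p = 0.367). Although these tests did not pass, the flu arrays of HYH were all above and those of AT3G44450 all below the wild type arrays, as was one or the other for 36.1% of probe sets.

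In mbs1-1 at 3 h the differences from wild type were 0.08 ± 0.17 for GI, 0.11 ± 0.14 for HYH and 0.24 ± 0.22 for AT3G44450, where 0.435% of probe sets passed. In RNAi-MBS2/mbs1-1 they were 0.13 ± 0.17, 0.27 ± 0.14 and 0.36 ± 0.22, with 0.22% passing. In 35S:MBS1 they were -0.07 ± 0.17, 0.15 ± 0.14 and 0.23 ± 0.22, with 0.0176% passing. HYH did not overlap with wild type in RNAi-MBS2/mbs1-1 and 35S:MBS1, a pattern shown by 15.6% and 10.9% of probe sets in these comparisons. All 3 genes overlapped in mbs1-1, where 15.8% of probe sets did not. None of these values passed in limma, and the lowest adjusted p among them was 0.759.

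The lines with altered MBS1 were also set against each other. RNAi-MBS2/mbs1-1 differed from mbs1-1 at 0 h by 0.18 ± 0.17 in GI, 0.04 ± 0.14 in HYH and 0.26 ± 0.22 in AT3G44450, with 0.0044% of probe sets passing. At 3 h the values were 0.06 ± 0.17, 0.16 ± 0.14 and 0.12 ± 0.22, with 0.00879% passing. Overexpression minus loss of MBS1, that is 35S:MBS1 minus mbs1-1, gave 0.38 ± 0.17 for GI at 0 h (unadjusted p = 0.031, limma adjusted p = 0.509), -0.15 ± 0.14 for HYH and -0.05 ± 0.22 for AT3G44450, against 0.0352% of probe sets passing. At 3 h it gave -0.15 ± 0.17, 0.04 ± 0.14 and -0.01 ± 0.22, against 0.123% passing. None passed in limma, and the groups overlapped in all of these comparisons. Groups without overlap made up 14.8% (0 h) and 15.2% (3 h) of all probe sets for the RNAi line against mbs1-1, and 18.5% and 15.4% for the overexpressor against mbs1-1.

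**Figure D3:**
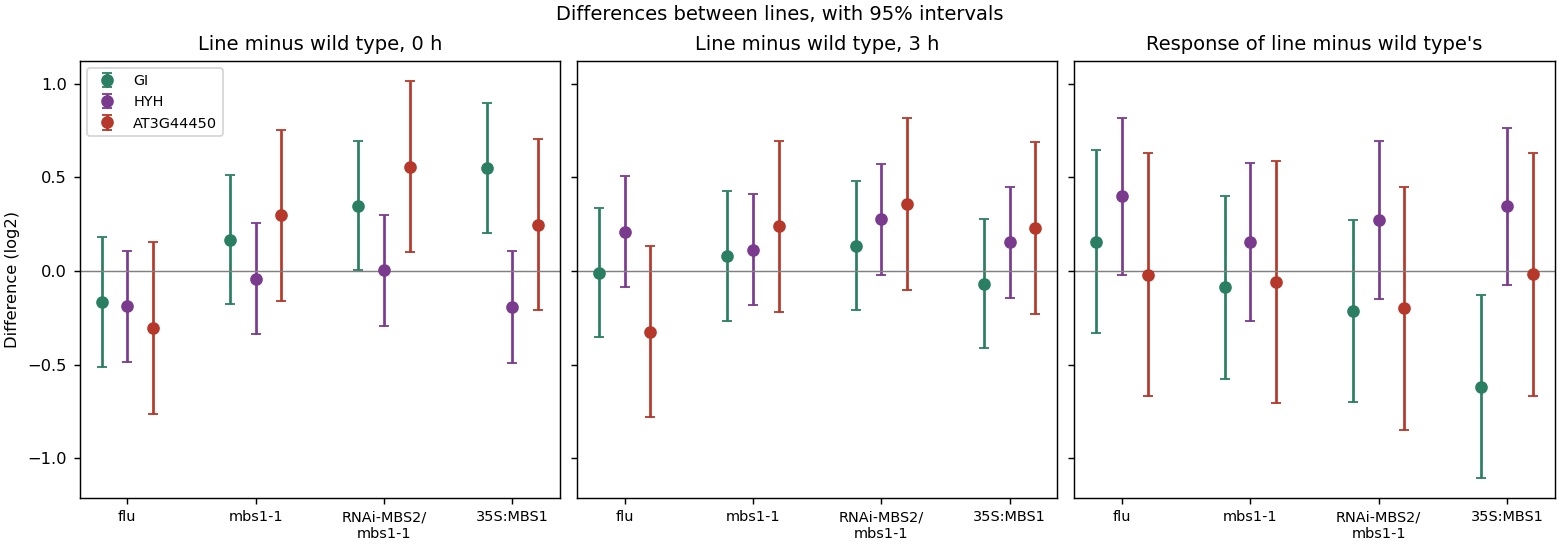
Differences from wild type of GI, HYH and AT3G44450 in 4 lines (log2), at 0 h, at 3 h and in the response itself. Points are limma estimates and bars are unadjusted 95% intervals from 3 arrays per group. The intervals of GI in 35S:MBS1 at 0 h (0.21 to 0.89) and in its response (-1.11 to -0.13), and of GI and AT3G44450 in RNAi-MBS2/mbs1-1 at 0 h, leave out 0, and none of the 36 values passed after adjustment over all probe sets.

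The response itself was compared between lines as an interaction of line and time. In flu, where 8.41% of all probe sets had a response that differed from that of wild type, GI differed by 0.16 ± 0.24, HYH by 0.40 ± 0.20 and AT3G44450 by -0.02 ± 0.31, with limma adjusted p of 0.804, 0.272 and 0.986. The 95% intervals ran from -0.33 to 0.64, from -0.02 to 0.82 and from -0.67 to 0.63. A difference of the response in flu by a doubling or a halving thus lay outside all 3 intervals.

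The response of GI in 35S:MBS1 was -0.62 ± 0.24 relative to wild type, with a 95% interval of -1.11 to -0.13 (unadjusted p = 0.0152, limma adjusted p = 1). HYH stood at 0.34 ± 0.20 and AT3G44450 at -0.02 ± 0.31 there. For mbs1-1 the values of GI, HYH and AT3G44450 were -0.09 ± 0.24, 0.15 ± 0.20 and -0.06 ± 0.31, and for RNAi-MBS2/mbs1-1 they were -0.21 ± 0.24, 0.27 ± 0.20 and -0.20 ± 0.31. The share of all probe sets that passed was 0.0528% for mbs1-1, likewise 0.0528% for RNAi-MBS2/mbs1-1, and 0% for 35S:MBS1.

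Over the 16 comparisons between lines, limma called 0 of the 48 values of these genes, and the lowest adjusted p was 0.272. An unadjusted p under 0.05 was found for 5 of the 48, or 10.4%, against 10.3% over all probe sets in the same comparisons. That share pools unlike comparisons, with 6813 of 22746 probe sets in flu at 3 h and 4775 in the flu response. None of the 5 values was in a flu comparison. They lay in RNAi-MBS2/mbs1-1 at 0 h (1688 probe sets), 35S:MBS1 at 0 h (879), its response (732) and 35S:MBS1 minus mbs1-1 at 0 h (2023). Those of GI in 35S:MBS1 share arrays, so the 5 are not independent. A limma F test over all 5 lines, added after the pairs had been seen, gave GI an adjusted p of 0.123 at 0 h, 0.87 at 3 h and 0.157 for the response, AT3G44450 0.212, 0.134 and 0.982, and HYH 0.785, 0.606 and 0.543. Of all probe sets 0.774%, 20% and 10.8% passed these F tests. The means of GI spanned 0.72 over the 5 lines at 0 h and 0.20 at 3 h. Those of AT3G44450 spanned 0.86 and 0.68, and those of HYH 0.20 and 0.27. These tests do not show that the lines were alike, only that differences of this size did not pass with 3 arrays per group.

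In the order of group means, GI ran at 0 h from flu (5.57 ± 0.17, SD) through wild type (5.74 ± 0.18), mbs1-1 (5.90 ± 0.34) and RNAi-MBS2/mbs1-1 (6.08 ± 0.25) to 35S:MBS1 (6.28 ± 0.34). At 3 h it ran from 35S:MBS1 (9.67 ± 0.17) through flu (9.73 ± 0.07), wild type (9.74 ± 0.14) and mbs1-1 (9.82 ± 0.16) to RNAi-MBS2/mbs1-1 (9.88 ± 0.08). Each neighbouring pair within a time overlapped. 35S:MBS1 stood at the top of the order before high light and at the bottom after it.

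HYH at 0 h ran from 35S:MBS1 (10.75 ± 0.19) and flu (10.75 ± 0.08) through mbs1-1 (10.90 ± 0.10) to wild type (10.94 ± 0.24) and RNAi-MBS2/mbs1-1 (10.95 ± 0.39). At 3 h the order was wild type (12.32 ± 0.06), mbs1-1 (12.43 ± 0.11), 35S:MBS1 (12.47 ± 0.11), flu (12.53 ± 0.03) and RNAi-MBS2/mbs1-1 (12.60 ± 0.11). All neighbours within a time overlapped here too.

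AT3G44450 at 0 h ran from flu (5.69 ± 0.55) through wild type (5.99 ± 0.27), 35S:MBS1 (6.24 ± 0.39) and mbs1-1 (6.29 ± 0.15) to RNAi-MBS2/mbs1-1 (6.55 ± 0.19). At 3 h it ran from flu (10.65 ± 0.10) through wild type (10.97 ± 0.27), 35S:MBS1 (11.20 ± 0.05) and mbs1-1 (11.21 ± 0.35) to RNAi-MBS2/mbs1-1 (11.33 ± 0.22). The order of the 5 lines was the same at both times, but 35S:MBS1 and mbs1-1 were hardly apart. At 3 h 35S:MBS1 minus mbs1-1 was -0.01 ± 0.22 (SE). The sign of this difference changed with quantile normalization, with median centring and without the brighter arrays. Only flu and wild type at 3 h were neighbours within a time whose arrays did not overlap, as for 36.1% of all probe sets.

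The 3 genes differed in how much replicates varied. The residual SD over the 10 groups was 0.29 for AT3G44450, larger than that of 85.9% of probe sets. It was 0.21 for GI and 0.17 for HYH, against a median of 0.20 over all probe sets. The standard errors above follow this order.

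The group profiles of the 3 genes were compared as the root mean square difference of the 10 group means, each profile centred on its own mean, which is a distance in log2 units and 0 for equal profiles. GI and AT3G44450 were 0.57 apart, GI and HYH 1.14, and HYH and AT3G44450 1.67. Among the 13512 other single-gene probe sets the profile nearest to that of GI was AT4G16146, at 0.12, which changed by 3.79 in wild type and 3.91 in flu. AT1G51090 followed at 0.19, and then UGT78D2, a flavonoid glucosyltransferase gene, at 0.24.

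The profiles nearest to HYH were those of AT5G53050 at 0.07, AT3G27110 at 0.08 and AT5G43260 at 0.08. Their wild type changes were 1.42, 1.22 and 1.38, and their flu changes 1.65, 1.68 and 1.65. The profiles nearest to AT3G44450 were those of AT1G06000 at 0.21, AT3G52740 at 0.27 and AT5G62210 at 0.35, with wild type changes of 5.28, 4.47 and 4.35. A smaller distance for HYH goes with its smaller range of 1.85 over the 10 group means, against 4.31 for GI and 5.64 for AT3G44450, and distances are therefore not compared between the 3 genes.

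**Figure D4:**
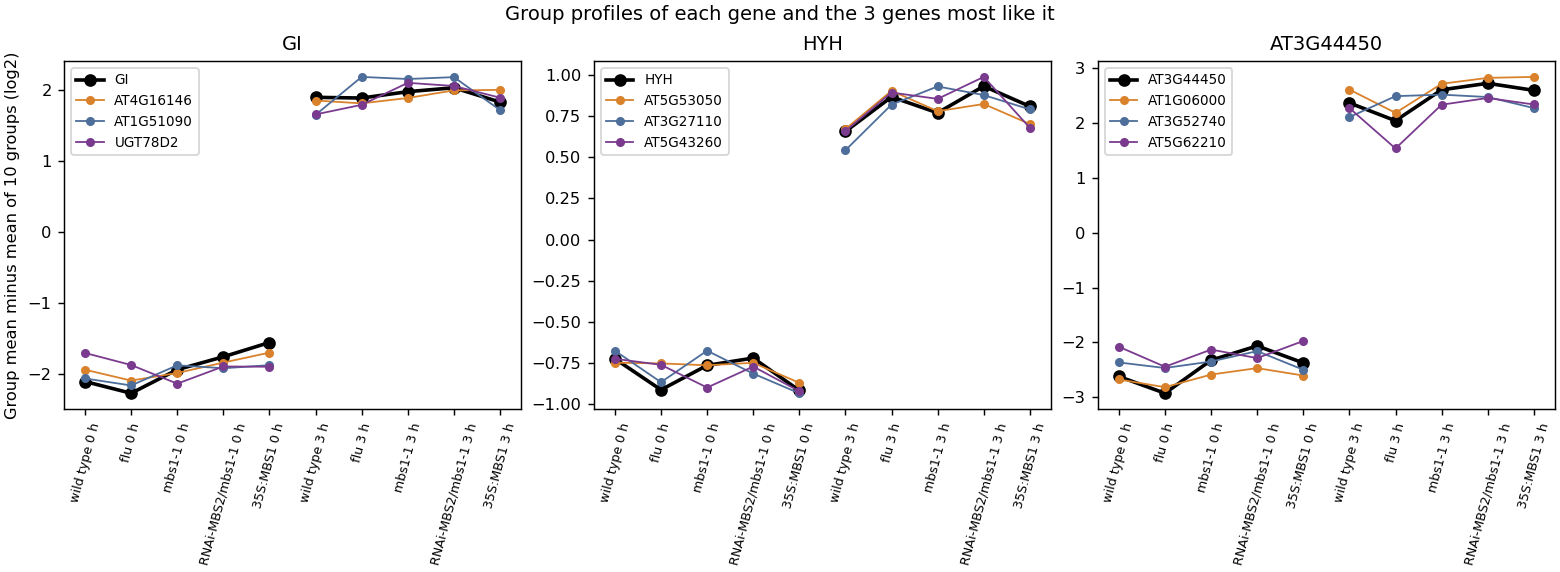
Group means of GI, HYH and AT3G44450 (black) and of the 3 single-gene probe sets with the most similar profile, each minus its own mean over the 10 groups (log2). Lines only join the points of one time. The nearest profiles are those of AT4G16146 to GI (0.12), AT5G53050 to HYH (0.07) and AT1G06000 to AT3G44450 (0.21), as root mean square differences over 10 groups.

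Other genes of light signalling and the clock set these responses in context. Of 124 gene symbols listed for these pathways only 5 were found as the symbol of a single-gene probe set. The search was by symbol, so a listed gene that the annotation names by its locus alone would be missed. Genes named above only by locus, such as AT3G52740 among the profiles nearest to AT3G44450, were not checked against the list. Most clock, photoreceptor and HY5 genes were not analysed here, which does not show that they lack probe sets. The 5 were TIC, XCT, FIO1 and COR27 of the clock and FHL, which carries phytochrome A into the nucleus. A further 6 were taken because the annotation names them for light or photoperiod. These were LIP1, a small GTPase of the light input to the clock, AT4G14480, the kinase BLUS1 of blue light signalling in guard cells, SHB1, CSN5B, AT1G72390 and DNF. Each stands for itself, and the lists do not stand for the pathways.

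Of the 11 genes 2 rose and 4 fell in wild type, as in 35S:MBS1, while 3 rose and 4 fell in flu and in RNAi-MBS2/mbs1-1, and 3 rose and 3 fell in mbs1-1. The background shares are those given above. Their median change in wild type was -0.06, against -0.07 for all probe sets.

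COR27, which encodes a repressor of clock genes, rose in all 5 lines. Its level in wild type was 7.38 ± 0.14 at 0 h and 10.04 ± 0.19 at 3 h (SD). The log2 fold change was 2.66 ± 0.28 in wild type (limma adjusted p = 1.3e-08), 3.22 ± 0.28 in flu and 3.17 ± 0.28 in mbs1-1. For 35S:MBS1 it was 2.25 ± 0.28 and for RNAi-MBS2/mbs1-1 2.67 ± 0.28. As with GI, the smallest value was that of 35S:MBS1, and the difference of its response from that of wild type did not pass.

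FHL fell in all 5 lines. Its level in wild type was 7.77 ± 0.45 at 0 h and 4.30 ± 0.36 at 3 h. The log2 fold change was -3.47 ± 0.22 in wild type (limma adjusted p = 1.14e-12), -2.84 ± 0.22 in flu and -3.64 ± 0.22 in mbs1-1. For 35S:MBS1 it was -3.44 ± 0.22 and for RNAi-MBS2/mbs1-1 -3.22 ± 0.22. At 0 h FHL stood at 6.89 ± 0.12 in flu, -0.88 ± 0.22 relative to wild type. The groups did not overlap, as for 11.4% of all probe sets in this comparison. Over the 11 genes described here, 13 of 132 pairs of groups compared between lines did not overlap. The limma adjusted p of FHL in flu at 0 h was 0.0645. Without wild type 0 h replicate 2 this p was 0.0261, and over all settings it ran up to 0.514.

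Several of these genes were dim, and whether their levels lay above array background was not tested. SHB1 stood at 3.28 ± 0.13 (SD) in wild type at 0 h, FIO1 at 4.92 ± 0.31, and FHL at 3 h as given above. DNF was the dimmest, between 2.36 and 2.93 at 0 h and between 2.30 and 2.81 at 3 h over all lines. SHB1, a gene of hypocotyl growth under blue light, rose in wild type by 0.98 ± 0.27 (limma adjusted p = 0.00457) and in the other lines by 1.29 to 1.60. AT4G14480 fell in wild type by 1.16 ± 0.20 (limma adjusted p = 2.98e-05), and its values in the other lines were -1.08 to -0.68. LIP1 fell in wild type by 0.52 ± 0.13 (limma adjusted p = 0.00132) and stood at -0.51 to -0.40 in the others. The LIP1 call was lost in mbs1-1 without mbs1-1 3 h replicate 2 (adjusted p = 0.0654) and in 35S:MBS1 without 35S:MBS1 0 h replicate 2 (adjusted p = 0.0527).

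TIC, needed for normal clock amplitude, passed as lower in 3 lines, wild type (-0.46 ± 0.18, limma adjusted p = 0.04), RNAi-MBS2/mbs1-1 (-0.45 ± 0.18) and 35S:MBS1 (-0.59 ± 0.18). FIO1 passed as lower in flu, at -0.68 ± 0.15, and XCT, the XAP5 circadian timekeeper, as higher in flu, mbs1-1 and RNAi-MBS2/mbs1-1, at 0.29, 0.30 and 0.26 (SE 0.11 each). The TIC calls were lost without single arrays, in wild type with an adjusted p of up to 0.164. The XCT calls were lost without single arrays and also with all arrays, under other settings. When the fit held no arrays but the compared ones, the adjusted p of XCT was 0.175 in flu, 0.0942 in mbs1-1 and 0.103 in RNAi-MBS2/mbs1-1. With the replicate number as a block it was 0.0556 in RNAi-MBS2/mbs1-1. CSN5B, AT1G72390 and DNF passed in no line. Between lines, limma called 0 of 176 values of the 11 genes, and the lowest adjusted p was 0.0645. Of all probe sets 18.3% passed in flu at 3 h, 8.41% in the flu response and 0.506% in flu at 0 h. In each other comparison between lines 0.435% or less passed, so few calls would be found at the background. An unadjusted p under 0.05 was found for 8 of the 176, or 4.55%, against 10.3% over all probe sets, pooled over the same unlike comparisons.

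**Figure D5:**
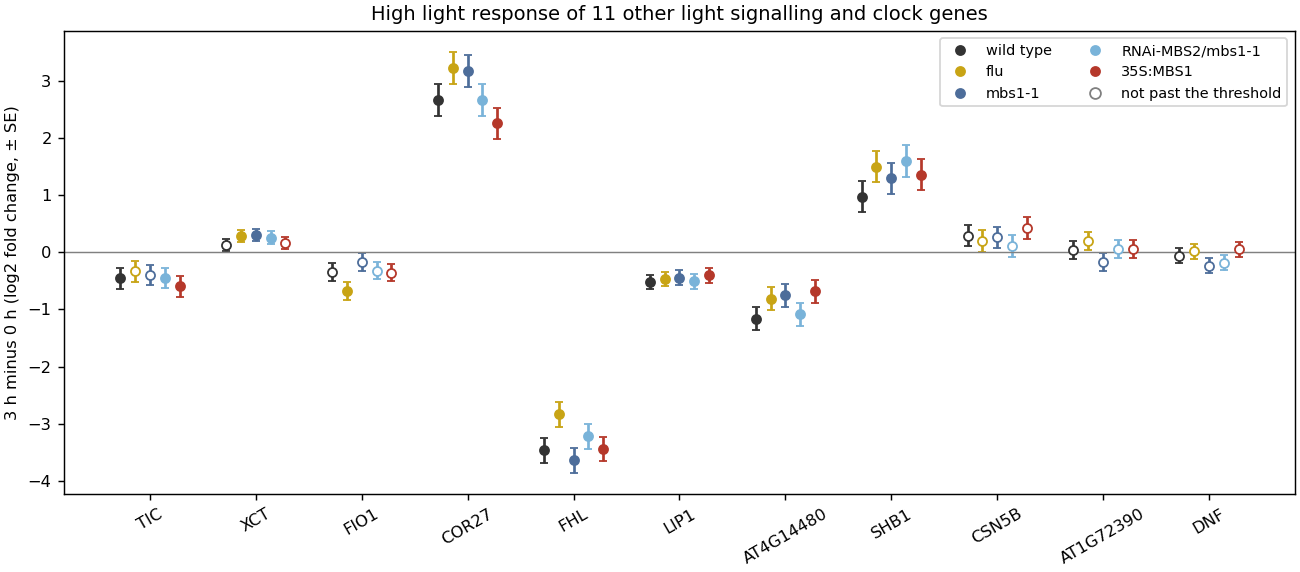
Response to high light (3 h minus 0 h, log2 fold change ± SE) of 11 other light signalling and clock genes in 5 lines. Filled points passed at a limma adjusted p under 0.05 and open points did not. COR27 and SHB1 lie above 0 and FHL, LIP1 and AT4G14480 below 0 in all 5 lines, with FHL lowest at -3.64 in mbs1-1.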

How the data were processed

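RNA of seedlings without roots was measured on 1-colour ATH1 arrays. Per the submitters' processing notes, the authors used RMA and affy, and the deposited values are log2 signal. Their versions, and whether all arrays were normalized as one set, are not stated in the labels, and depth has no counterpart on arrays beyond their number. Of 22810 probe sets 64 controls were left out. Of the other 22746, 13513 matched 1 gene in the platform annotation, 503 several and 8730 none. AT1G72390 had 2 probe sets, and the one with the higher mean was used.

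Group means of the 10 groups were estimated jointly by limma 3.58.1 (R 4.3.3) from the 30 arrays, with Benjamini-Hochberg adjustment over all 22746 probe sets, and an adjusted p under 0.05 passed. The 21 comparisons were 5 responses, 8 of a line with wild type, 4 between lines with altered MBS1 and 4 differences of responses. Plots used Python 3.11.15 and matplotlib 3.10.9. Steps were tested on simulated data. The genes and lists were chosen with earlier results of these data known. Genes named besides the 3 were the listed genes measured and, for each of the 3, those with the 3 most similar group profiles. The symbols CCR2 and CHI in the annotation belong to other genes and were left out.

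The labels call the replicates biological, and nothing says whether they came from separate sowings, so p-values measure only the spread between these samples. Deviations of same-numbered arrays from their group means had a median correlation of -0.007 over 135 pairs. The values ran from -0.31 to 0.37, with 30 above 0.1. For 0 h and 3 h of the same line the median was -0.022 over 15 pairs, with 4 above 0.1. Arrays with different numbers were not set beside these. The numbers were not taken as pairs, although some same-numbered arrays did deviate together.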

Additional observations from a re-analysis of the deposited data

How the results depend on the processing

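The 15 responses of GI, HYH and AT3G44450 to high light kept their direction and passed in each of the 14 alternatives per response: only the compared arrays in the fit, a replicate block, dim probe sets left out, quantile normalization, median centring, another variance prior, only single-gene probe sets, the 2 brighter arrays left out, and each of 6 arrays left out. The highest adjusted p was 0.000204. Of the 48 differences between lines, recomputed 744 times, none passed (lowest adjusted p 0.131). With the replicate block, GI in wild type gave 4.01 ± 0.15, and the block changed no call of these 3 genes. It ended the XCT call in RNAi-MBS2/mbs1-1 (adjusted p = 0.0556).

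Values near 0 changed sign in 15 differences, with adjusted p of 0.687 or more. Quantile normalization gave 0.019 for HYH in mbs1-1 minus wild type at 0 h and 0.045 for AT3G44450 in 35S:MBS1 minus mbs1-1 at 3 h, which was 0.074 after median centring. With the brighter arrays left out, these 2 were 0.048 and 0.10, GI in RNAi-MBS2/mbs1-1 minus mbs1-1 at 3 h was -0.022, and the response of AT3G44450 relative to wild type was 0.13 in flu and 0.13 in 35S:MBS1. With single arrays left out, HYH ran from -0.18 to 0.048 in mbs1-1 and -0.13 to 0.23 in RNAi-MBS2/mbs1-1 against wild type at 0 h, from -0.073 to 0.27 in RNAi-MBS2/mbs1-1 minus mbs1-1 at 0 h and from -0.023 to 0.086 in 35S:MBS1 minus mbs1-1 at 3 h. GI against wild type at 3 h ran from -0.16 to 0.0086 in 35S:MBS1, -0.075 to 0.066 in flu and -0.0028 to 0.16 in mbs1-1, from -0.022 to 0.14 in RNAi-MBS2/mbs1-1 minus mbs1-1, and its response from -0.26 to 0.071 in mbs1-1 relative to wild type. AT3G44450 ran from -0.21 to 0.10 (3 h) and -0.27 to 0.11 (0 h) in 35S:MBS1 minus mbs1-1, from -0.086 to 0.23 in RNAi-MBS2/mbs1-1 minus mbs1-1 at 3 h, and its response relative to wild type from -0.23 to 0.29 in flu, -0.17 to 0.20 in 35S:MBS1 and -0.17 to 0.15 in mbs1-1. The cause was not tested.

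The shares of all probe sets that passed were less stable. With only the compared arrays, 115 calls in flu at 0 h became 8 and 99 in mbs1-1 at 3 h became 2. Single-gene probe sets alone gave 5698 in place of 10345 in the wild type response and 2175 in place of 4164 in flu at 3 h, since fewer were tested. Without wild type 3 h replicate 3, 4 calls in 35S:MBS1 at 3 h became 57 and 50 in RNAi-MBS2/mbs1-1 became 113. Of the 40 responses recomputed for 8 other genes, the TIC calls were lost on leaving out, one at a time, replicates 1 or 2 at 0 h and 2 or 3 at 3 h of wild type, replicates 1 or 3 at 0 h and 2 or 3 at 3 h of RNAi-MBS2/mbs1-1, and replicate 1 at 0 h or 2 at 3 h of 35S:MBS1 (adjusted p up to 0.164). The XCT calls were lost in all 3 lines with only the compared arrays (adjusted p from 0.0942 to 0.175) and after quantile normalization (from 0.0525 to 0.105), and in 1 or 2 lines after median centring, with the other variance prior and among single-gene probe sets. They were also lost on leaving out replicates 1 or 2 at 0 h or 2 at 3 h of flu, 2 or 3 at 0 h or 3 at 3 h of mbs1-1, and 2 or 3 at 0 h or any at 3 h of RNAi-MBS2/mbs1-1 (adjusted p up to 0.178). After median centring TIC also passed in flu (adjusted p = 0.0362) and mbs1-1 (0.0201), and FIO1 in wild type (0.0325) and 35S:MBS1 (0.0221). Without detection calls the 0 h levels of GI and AT3G44450 could not be set against background.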
